A study of Mus musculus with 13 samples.

Results

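Interferon-stimulated genes, the antiviral and antimicrobial genes that cells switch on when an interferon binds its receptor, were followed in liver tumours of mice lacking mir-122 and in control livers. The list held 42 such genes, and where a gene had several probe sets the one with the highest mean across the 13 arrays stood for it. A probe set naming a single gene was found for 40 of the 42, out of 18194 genes measured. Isg15, which encodes a ubiquitin-like modifier, and Ifi44 had none and were skipped. The 40 genes were split into 34 type I-like genes and 6 gamma-induced genes, the latter being the GTPases Gbp2, Gbp3, Gbp7, Igtp, Irgm1 and Irgm2.

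Messenger RNA was measured on one-colour arrays, 1 sample per array, in 8 tumours of mir-122 knockout mice and 5 livers of wild-type mice, all of a mixed B6/129 background. The 11-month groups held 3 tumours and 2 livers, and the 14-month groups held 5 and 3. Tumour tissue was compared with whole liver of the other genotype, so genotype and tumour cannot be told apart. The sources used here do not give how the knockout allele was made or whether it was confined to a cell type. The labels do not say that the tumours came from separate mice, so the p-values measure the spread between these samples. Samples are named below by age and a number, and the numbers are only names. The titles of 14-month tumours 1 and 2 lack the identifying number that the titles of the other tumours carry. Whether these tumours came from 1 mouse is not known. All levels are log2 values and all fold changes are log2 fold changes, so a difference of 1 is a doubling.

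Type I interferons (the alpha family and beta) signal through the receptor pair Ifnar1 and Ifnar2, and type III interferons through Ifnlr1 and Il10rb. Both receptors lead to binding of interferon-stimulated response elements in target promoters by a complex that holds Stat2 and Irf9. Interferon gamma signals through Ifngr1 and Ifngr2 to promoters with gamma-activated sites. Many genes answer to both kinds of interferon, and the guanylate-binding proteins and immunity-related GTPases are best known as targets of gamma. In liver these programmes are known chiefly from viral infection.

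Promoter sequence shows how far the classes share these elements. Windows from 250 bases before to 50 bases after the annotated start were available from RefSeq (GRCm38.p6) for 31 of the 40 genes. The core of the response element was searched as GAAANNGAAA on either strand (TTTCNNTTTC on the other) and the gamma-activated site as TTCNNNGAA, which is its own reverse complement. The response-element core was present in 11 of 25 type I-like genes (44%) and in all 6 gamma-induced genes, against 3.99% of all 27025 genes with a window. A match to the gamma-activated site was present in 4 of 25 type I-like genes (16%) and in 3 of 6 gamma-induced genes (50%), against 9.55% of all genes. The ends of the motifs share letters, so a match to one can overlap a match to the other. A match is a run of letters and not a shown binding site.

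The stretches around the matches are given for 5 type I-like genes and then 5 gamma-induced genes, to set the elements of the classes side by side. Each is written along its gene's strand, 5′ to 3′, with 20 bases on either side, and the capitals mark the response-element core.
Ifit1 (chr19:34640765-34640833, plus strand): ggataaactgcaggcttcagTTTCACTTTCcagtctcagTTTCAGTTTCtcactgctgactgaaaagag
Ifit3 (chr19:34583353-34583436, plus strand): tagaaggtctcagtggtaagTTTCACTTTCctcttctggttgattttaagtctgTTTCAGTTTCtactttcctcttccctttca
Rsad2 (chr12:26456543-26456592, minus strand): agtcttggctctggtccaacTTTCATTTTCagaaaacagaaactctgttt
Oas3 (chr5:120777705-120777754, minus strand): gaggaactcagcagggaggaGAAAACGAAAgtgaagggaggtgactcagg
Trim30a (chr7:104465200-104465249, minus strand): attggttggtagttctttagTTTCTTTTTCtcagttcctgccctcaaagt
Gbp2 (chr3:142620584-142620633, plus strand): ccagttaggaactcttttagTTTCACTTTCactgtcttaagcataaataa
Gbp3 (chr3:142559979-142560034, plus strand): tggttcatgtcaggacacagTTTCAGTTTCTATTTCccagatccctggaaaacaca
Gbp7 (chr3:142530263-142530312, plus strand): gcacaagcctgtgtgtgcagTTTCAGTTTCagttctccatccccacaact
Igtp (chr11:58199502-58199551, plus strand): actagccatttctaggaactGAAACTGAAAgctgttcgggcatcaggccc
Irgm2 (chr11:58214893-58214942, plus strand): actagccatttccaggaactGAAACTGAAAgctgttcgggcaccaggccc

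Ifit1 and Ifit3 each carried a pair of cores, at 104 and 85 bases and at 156 and 122 bases before the start. Gbp3 carried a pair of overlapping cores at 45 and 39 bases before the start of one of its annotated transcripts. The Igtp and Irgm2 stretches were identical at 48 of 50 bases, and both hold a match to the gamma-activated site just upstream of the core, at 45 bases before the start in Igtp and 75 in Irgm2. The presence of a core in the window did not separate the genes that passed the test below from the others. Of the 11 type I-like genes with a core 4 passed with the ages combined, and of the 14 without one 9 did.

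Some arrays stood apart. The first principal component of all probe sets held 49.5% of the variance, with the controls between -79.4 and -64.5 and 5 tumours between 67.8 and 92.2. The other 3 tumours, 11-month tumours 1 and 2 and 14-month tumour 4, lay between at -2.74, -17.8 and 1.55 and are called the in-between tumours below. Among the controls, 11-month control 1 and 14-month control 3 correlated at 0.995 although their labelled ages differ, and no other pair exceeded 0.990. The labels do not settle whether these are 1 animal or sample. If they are, the controls number 4 and the p-values below, which count 5, rest on fewer samples than stated. Counts of members, class medians and the calls of some genes are also given without these arrays. Hepatocyte markers (Alb, Ttr, Apoa1 and Cps1) summed to between 15.96 and 16.35 in tumours and between 16.31 and 16.36 in controls, and none of the 4 passed the test. The sums were 16.34 and 16.35 in 11-month tumours 1 and 2. In all other tumours they were 15.96 to 16.24, below every control.

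With the ages combined, 20 of the 40 genes were higher in tumours than in controls and 0 were lower (limma, Benjamini-Hochberg adjusted p under 0.05 over all genes). Over all genes, 10.3% were higher and 9.81% lower. At an unadjusted p under 0.05 there were 27 members higher and 0 lower, and 6627 of the 18194 genes differed in either direction. The type I-like class gave 18 of 34 and the gamma-induced class 2 of 6, Gbp2 and Gbp3. The median fold change was 1.37 over the type I-like genes, with quartiles of 0.47 and 2.33, and 0.33 over the gamma-induced genes, with quartiles of 0.16 and 1.49. The median over all genes was -0.05. Without both nearly identical controls the class medians were 1.54 and 0.63, and without the 3 in-between tumours 1.93 and 1.11. In 13 members, all of them type I-like, every tumour lay above every control, against 6.22% of all genes. No member had every tumour below every control, against 5.07% of all genes. The members were listed with earlier results of these data known, so these counts describe the list and are not a test of it.

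**Figure D1:**
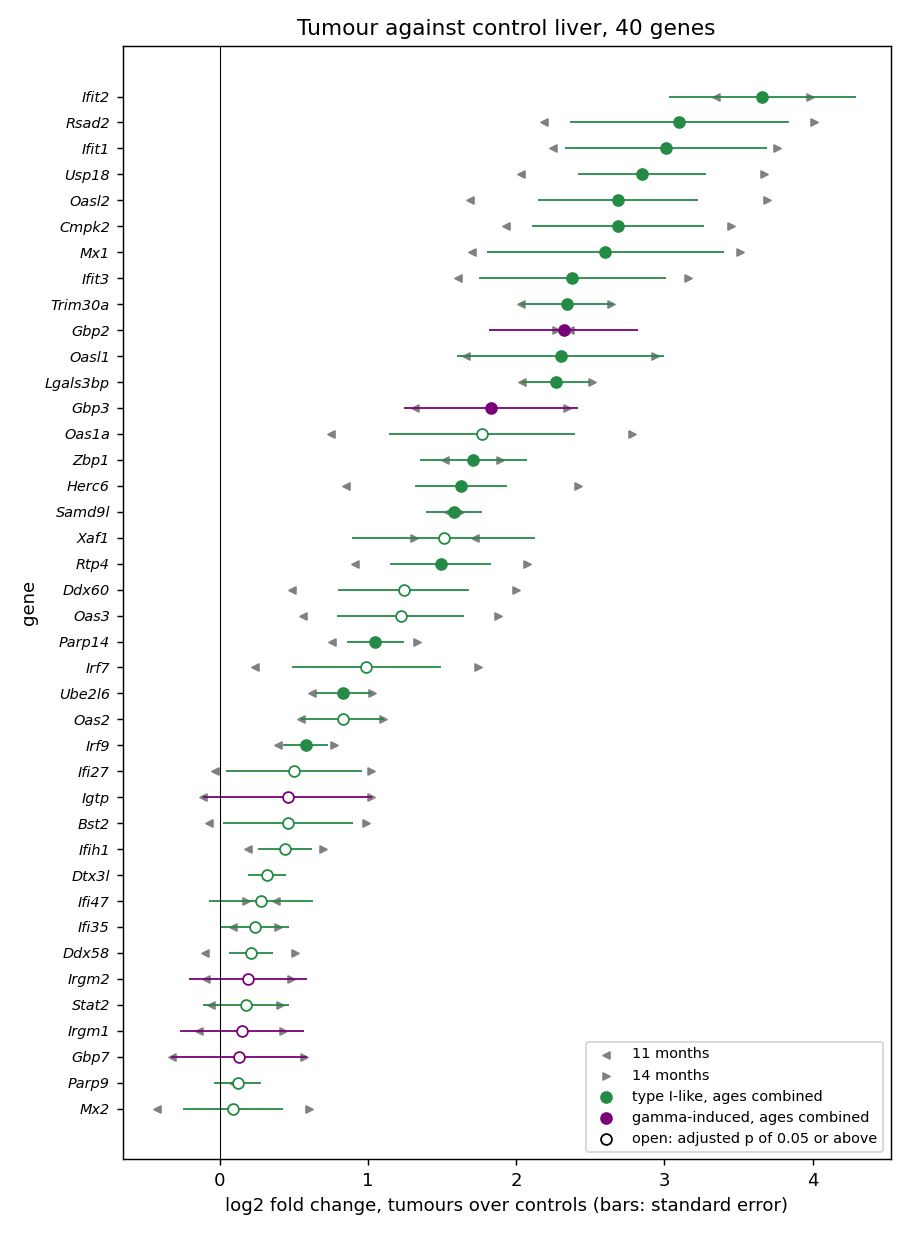
Log2 fold change of tumours against controls with the ages combined for each of the 40 genes, with bars of 1 standard error, filled points for an adjusted p under 0.05, and triangles for the estimates at 11 and at 14 months. The type I-like genes run from 0.09 (Mx2) to 3.66 (Ifit2), and 4 of the 6 gamma-induced genes lie below 0.5.

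The calls depended on which arrays entered. In each choice of arrays named in this paragraph, the number of all genes higher moved in the same direction as the member count. Without the 3 tumours in between on the first principal component, an alternative chosen after seeing the data, 31 members were higher, 28 type I-like and 3 gamma-induced. These tumours held the lowest tumour value in 38 of the 40 members, so leaving them out tends to raise the fold changes. It also leaves 1 tumour at 11 months. Without both nearly identical controls 9 members were higher. With only 1 of that pair left out 14 (without 11-month control 1) or 17 (without 14-month control 3) were, and without 11-month control 2 there were 12. In all of 25 settings in which single genes were followed, 7 of the 20 kept their call. These were Ifit2, Usp18, Oasl2, Trim30a, Herc6, Samd9l and Lgals3bp. Rsad2, Cmpk2, Irf9, Rtp4, Ube2l6 and Parp14 were among those that lost it without both nearly identical controls. Gbp3, Mx1 and Oasl1 lost it with 14-month tumours 1 and 2 averaged.

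The IFIT genes, whose proteins bind foreign RNA and block its translation, all rose. Ifit2 was at 4.85 and 5.14 in the 11-month controls and 4.84, 5.47 and 4.72 in the 14-month controls, against 6.45, 8.84 and 9.74 in the 11-month tumours and 8.90, 8.91, 10.26, 6.88 and 9.98 in the 14-month tumours. Every tumour was above every control, and 11-month tumour 1 and 14-month tumour 4 were the lowest of the tumours. Its fold change was 3.66 (SE 0.63, limma adjusted p = 0.00319), the largest of the members.

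Ifit1 stood at 6.25 and 6.22 in the 11-month controls and 5.76, 5.83 and 6.14 in the 14-month controls. In tumours it was at 7.04, 8.08 and 10.36 at 11 months and 9.53, 10.47, 10.88, 7.11 and 10.34 at 14 months. The groups did not overlap, and the 3 in-between tumours were 7.04 to 8.08 against 9.53 to 10.88 in the other 5. The fold change was 3.01 (SE 0.68, adjusted p = 0.011). Ifit3 ranged over 6.44 to 7.32 in controls and had a tumour median of 10.32 between 7.21 and 11.10, so 11-month tumour 1 fell inside the control range. Its fold change was 2.38 (SE 0.63, adjusted p = 0.0221). The calls of Ifit1 and Ifit3 were lost without both nearly identical controls.

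Rsad2, which encodes viperin, an enzyme making a chain-terminating nucleotide, and its neighbour Cmpk2, a nucleotide kinase, rose together. Rsad2 was at 7.83, 7.57, 7.61, 7.04 and 7.80 in the 5 controls. The 11-month tumours were at 8.61, 9.07 and 12.00 and the 14-month tumours at 11.21, 12.56, 12.57, 8.74 and 12.41. All 8 tumours exceeded all controls, with a step of over 2 log2 units between the in-between tumours and the rest. The fold change was 3.10 (SE 0.74, adjusted p = 0.0142) for Rsad2 and 2.69 (SE 0.58, adjusted p = 0.00932) for Cmpk2, which had a control range of 5.70 to 6.11 and a tumour range of 6.51 to 10.08.

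Of the OAS family, which senses double-stranded RNA and activates RNase L, 2 of 5 genes passed with the ages combined, both of them OAS-like genes. Oasl2 lay between 3.90 and 5.37 in controls and between 5.94 and 9.24 in tumours, with a fold change of 2.69 (SE 0.54, adjusted p = 0.00633). Oasl1 was at 7.04, 6.88, 7.01, 7.59 and 7.04 in controls, 7.05, 8.37 and 10.43 in the 11-month tumours and 10.69, 11.05, 11.07, 7.35 and 10.62 in the 14-month tumours. The range of the controls thus took in 11-month tumour 1 and 14-month tumour 4, and the fold change of Oasl1 was 2.30 (SE 0.70, adjusted p = 0.0395), a call lost in 14 of the 25 settings.

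Oas1a, Oas2 and Oas3 had fold changes of 1.77, 0.83 and 1.22, with adjusted p = 0.0687, 0.0602 and 0.0658. The Oas1a values fell into separate sets in both tissues. Its controls were at 8.92 and 6.85 at 11 months and 6.74, 7.02 and 8.68 at 14 months, the high values being those of the nearly identical pair. The tumours were at 7.74, 7.89 and 10.28 at 11 months and 10.46, 10.78, 10.68, 8.36 and 11.05 at 14 months, so the in-between tumours lay within the control range and the others above it.

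Mx1 and Mx2 belong to the dynamin-like GTPase gene family, and they differed from each other. Mx1 was at 4.09, 3.62, 3.70, 3.81 and 3.75 in controls, 3.99, 4.63 and 8.05 in the 11-month tumours and 7.26, 7.42, 8.58, 4.48 and 8.57 in the 14-month tumours. Only 11-month tumour 1 overlapped the controls, and the fold change was 2.60 (SE 0.80, adjusted p = 0.0403), a call lost in 13 of the 24 settings in which it was followed. Mx2 had a tumour range of 6.21 to 8.04 around a control range of 6.50 to 7.81. Its fold change was 0.09 (SE 0.34, adjusted p = 0.862), and it turned negative in 5 settings, to -0.03 with quantile normalisation repeated, with arrays shifted to a common median or without 14-month control 1, to -0.17 without 11-month control 2 and to -0.14 without 11-month tumour 3.

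The 3 measured members whose enzymes attach or remove the Isg15 modifier were all higher. Usp18 removes Isg15 and also dampens signalling at the type I receptor. It was at 7.75 and 7.18 in the 11-month controls and 6.02, 6.82 and 7.57 in the 14-month controls, against 10.04, 8.19 and 10.26 in the 11-month tumours and 11.04, 10.75, 10.50, 9.25 and 10.82 in the 14-month tumours. No tumour overlapped a control. The fold change was 2.85 (SE 0.43, adjusted p = 0.00164). Herc6, the main ligase for Isg15 in mice, had a fold change of 1.63 (SE 0.31, adjusted p = 0.00521), with tumours from 7.95 to 10.31 and controls from 6.88 to 7.77. Ube2l6, the conjugating enzyme, had one of 0.83 (SE 0.19, adjusted p = 0.011), and 11-month tumour 2, at 6.97, lay inside its control range of 6.58 to 7.06.

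Of the 3 transcription factors of the response measured among the members, 1 passed. Irf9 was higher by 0.58 (SE 0.15, adjusted p = 0.0228), with tumours between 7.28 and 8.44 and controls between 7.01 and 7.34. Stat2, its partner, had a fold change of 0.18 (adjusted p = 0.683). Irf7, which drives the interferon alpha genes, was at 9.36 and 7.84 in the 11-month controls and 7.35, 7.63 and 9.28 in the 14-month controls, against 8.67, 7.99 and 9.86 in the 11-month tumours and a lowest, median and highest value of 8.30, 10.17 and 10.43 in the 14-month tumours. The nearly identical controls were above all 3 in-between tumours, and the fold change of 0.99 did not pass (adjusted p = 0.174).

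Among the sensors of foreign nucleic acid, Zbp1, which recognises Z-form nucleic acid and can start necroptosis, was higher by 1.71 (SE 0.36, adjusted p = 0.00861). Its tumours ranged from 6.92 to 8.97 and its controls from 6.15 to 6.74. The RNA helicases Ifih1 (MDA5), Ddx58 (RIG-I) and Ddx60 had fold changes of 0.44, 0.21 and 1.24 with adjusted p = 0.109, 0.348 and 0.0684. In all 3 helicase genes the in-between tumours were below the other 5, as for Ddx60 at 5.64 to 6.58 against 7.46 to 8.71.

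Of Parp9, Parp14 and the ligase Dtx3l, a set of ADP-ribosylation genes, only Parp14 passed. It was higher by 1.05 (SE 0.19, adjusted p = 0.00407), with tumours from 7.94 to 9.20 and controls from 7.22 to 7.71. Parp9 and Dtx3l, whose proteins form a complex, had fold changes of 0.12 and 0.32 (adjusted p = 0.608 and 0.109).

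Lgals3bp and Samd9l did not show the division among the tumours. Lgals3bp encodes a secreted glycoprotein that binds galectins, and it was at 9.47 and 8.93 in the 11-month controls and 8.53, 8.60 and 9.48 in the 14-month controls. In tumours it was at 11.85, 10.66 and 11.21 at 11 months and 11.49, 11.41, 11.26, 11.06 and 11.65 at 14 months. Every tumour was above every control, and 11-month tumour 1, the lowest tumour in 25 of the 40 members, was the highest here. The fold change was 2.27 (SE 0.23, adjusted p = 0.000168), the smallest p of the members.

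Samd9l, which restricts translation and cell growth, was at 6.79, 7.04, 6.85, 6.91 and 6.74 in controls, 8.15, 8.44 and 8.77 in the 11-month tumours and 7.97, 8.43, 8.70, 8.04 and 9.10 in the 14-month tumours. Its groups did not overlap, and the in-between tumours lay among the others. The fold change was 1.58 (SE 0.19, adjusted p = 0.000536).

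Of the remaining members, Trim30a, a TRIM-family regulator, was higher by 2.34 (SE 0.31, adjusted p = 0.000813), with tumours from 7.21 to 9.23 and controls from 5.86 to 6.36. Rtp4, a receptor transporter protein, was higher by 1.49 (SE 0.34, adjusted p = 0.0116). Bst2 (tetherin, which holds budding virions at the membrane), Ifi27 and Ifi35 had fold changes of 0.46, 0.50 and 0.24 (adjusted p = 0.473, 0.455 and 0.475). Ifi27 was between 10.43 and 10.64 in the in-between tumours and between 11.97 and 12.85 in the other 5, against 10.50 to 11.86 in controls, so the in-between tumours lay at the level of the lower controls and the other 5 above every control.

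Xaf1, a pro-apoptotic gene, had a fold change of 1.51 (adjusted p = 0.102), and its probe sets disagreed. On the one used, 14-month tumour 5 was at 5.98 and 11-month tumour 1 at 8.20, and on the other these were at 10.23 and 4.72. Of the 16 members with several probe sets, only Ddx58 had fold changes of opposite sign.

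**Figure D2:**
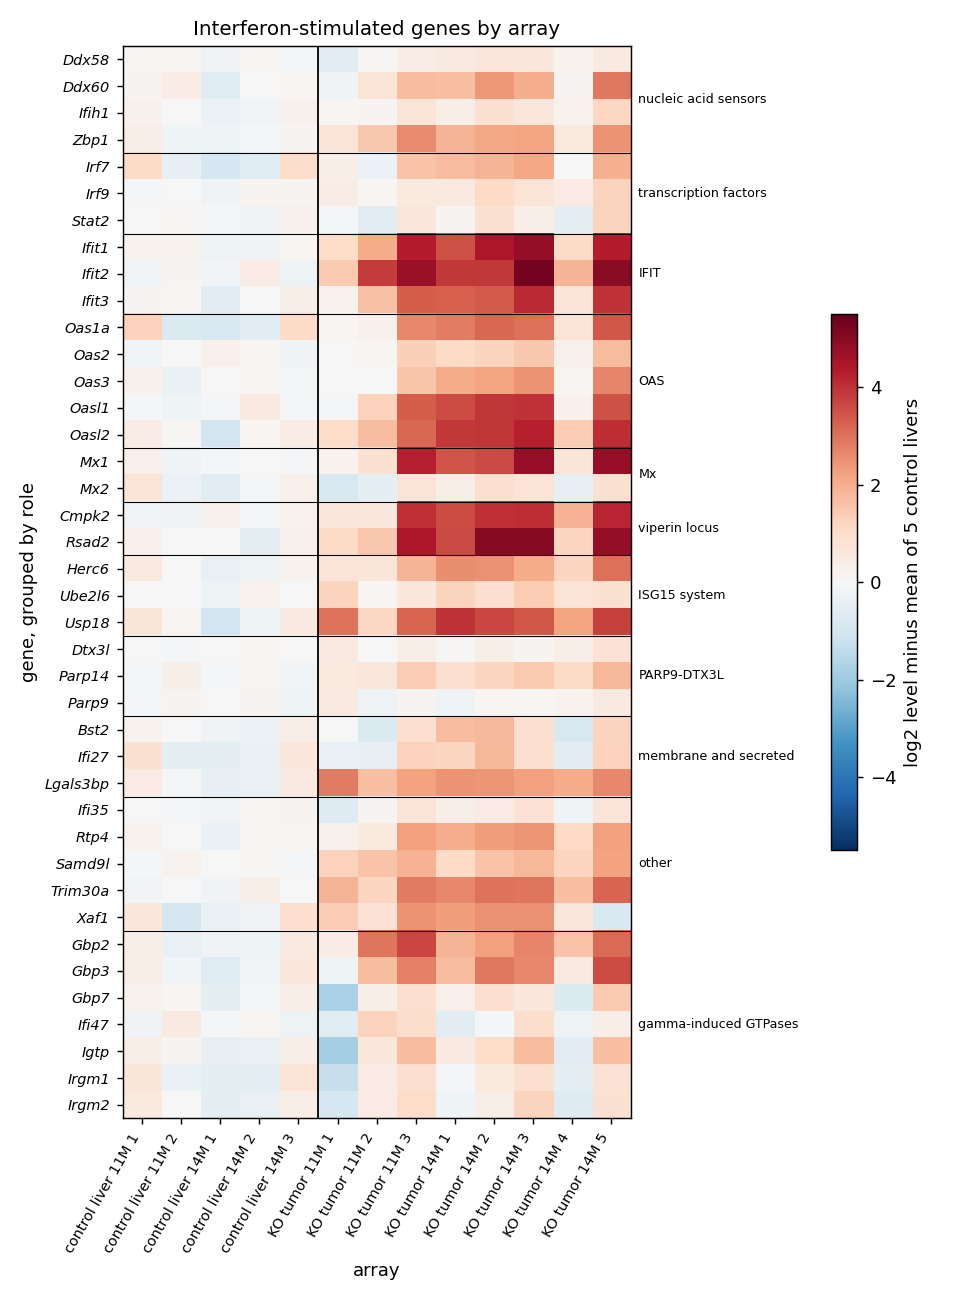
Heat map of the 40 genes (rows, by role) over the 13 arrays (columns, controls then tumours by age), with colour showing the log2 level minus the mean of the gene's 5 controls. The column of 14-month tumour 4 and those of 11-month tumours 1 and 2 are paler than those of the other 5 tumours, and Ifi47 is drawn with the gamma-induced GTPases by its protein family although it is counted as type I-like.

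The gamma-induced GTPases, which act in defence against intracellular pathogens, divided. Gbp2 was at 5.98 and 5.23 in the 11-month controls, 5.42, 5.40 and 6.14 in the 14-month controls, 6.03, 8.57 and 9.29 in the 11-month tumours and 7.49, 7.88, 8.31, 7.22 and 8.74 in the 14-month tumours. Only 11-month tumour 1 overlapped the controls, and the fold change was 2.32 (SE 0.50, adjusted p = 0.00879). Gbp3 was higher by 1.83 (SE 0.59, adjusted p = 0.0488), with tumours from 6.33 to 10.17 and controls from 5.91 to 7.16, and its call was lost in 15 of the 25 settings.

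Igtp, Irgm1, Irgm2 and Gbp7 did not pass, with fold changes of 0.46, 0.15, 0.19 and 0.13 and adjusted p = 0.586, 0.823, 0.75 and 0.864. Igtp was at 9.66 and 9.41 in the 11-month controls, 8.83, 8.88 and 9.60 in the 14-month controls, 7.45, 9.84 and 10.99 in the 11-month tumours and 9.76, 10.29, 11.01, 8.64 and 10.91 in the 14-month tumours. In this gene 11-month tumour 1 and 14-month tumour 4 were below every control and the other 6 tumours above every control. Gbp7 behaved alike in these 2 tumours, at 6.25 and 7.26 against a lowest control of 7.46. Ifi47, another immunity-related GTPase, had a fold change of 0.28 (adjusted p = 0.584), and moving it to the gamma-induced class left that class at 2 of 7 genes higher.

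Scores per array put the classes side by side. The score is the mean over a class of the log2 level minus that gene's mean in the 5 controls, and it is given without a test because the members were chosen with results known. The type I-like score was 0.52, 0.68 and 2.03 in the 11-month tumours and 1.86, 2.18, 2.26, 0.62 and 2.31 in the 14-month tumours, and -0.30 to 0.22 in controls. The gamma-induced score was -0.95, 1.09 and 1.82 in the 11-month tumours and 0.67, 1.32, 1.63, -0.09 and 1.91 in the 14-month tumours, and -0.48 to 0.49 in controls. All 8 tumours exceeded all controls in the type I-like score, whereas 11-month tumour 1 and 14-month tumour 4 did not in the gamma-induced score. The mean over tumours was 1.56 ± 0.80 (SD, n = 8) for type I-like and 0.92 ± 1.0 (SD, n = 8) for gamma-induced genes.

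**Figure D3:**
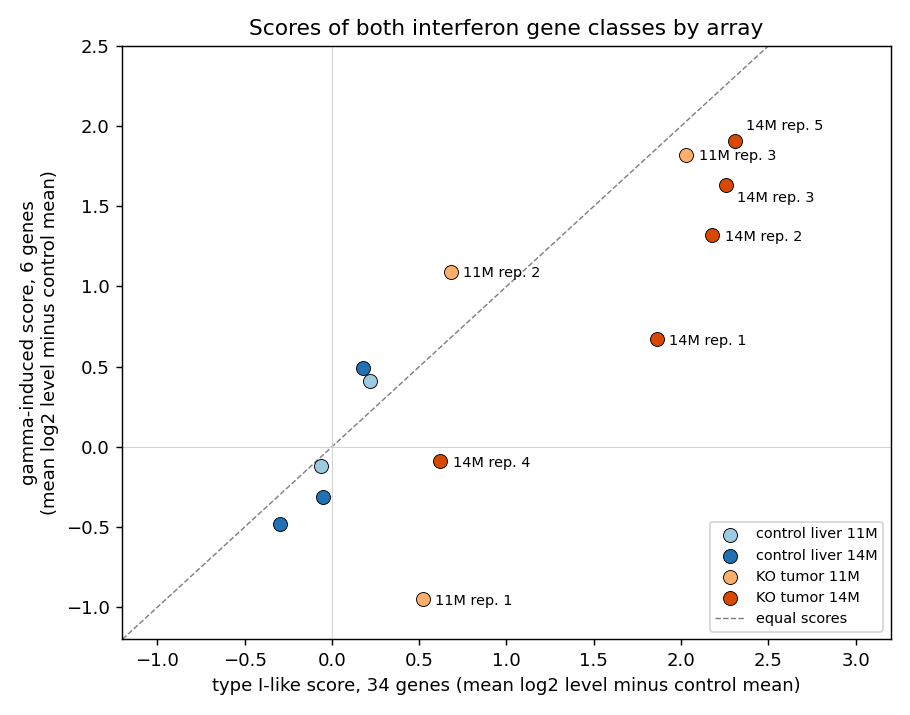
Type I-like score and gamma-induced score of each array, in log2 units relative to the mean of the 5 controls, 1 point per array coloured by group, with a dashed line where both scores are equal. The 3 in-between tumours lie at 0.52, 0.68 and 0.62 on the type I-like score, and the other 5 tumours between 1.86 and 2.31.

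The difference between the scores varied by tumour. Type I-like minus gamma-induced was 1.46 in 11-month tumour 1 and -0.41 in 11-month tumour 2, though their type I-like scores were close. In the other tumours it ran from 0.20 to 1.19, and in controls from -0.30 to 0.26. In 11-month tumour 1, 18 of 34 type I-like genes were above the highest control while 0 of 6 gamma-induced genes were. In the same tumour 4 of the 6 gamma-induced genes were below the lowest control, as were 31.7% of all genes. In 11-month tumour 2 the counts above the highest control were 18 of 34 and 4 of 6. In 11-month tumour 3 all 40 members exceeded the highest control. Over all genes, between 21.5% and 30.3% lay above the highest control in the 8 tumours.

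The 3 in-between tumours were below all other 5 tumours in 26 of the 34 type I-like genes (76.5%) and in 0 of the 6 gamma-induced genes, against 9.3% of all genes. The exceptions were Xaf1, Parp9, Parp14, Dtx3l, Ifi47, Samd9l, Ube2l6 and Lgals3bp. In all 6 gamma-induced genes 11-month tumour 2 lay within the range of the other 5, as at 8.57 for Gbp2 against 7.49 to 9.29. The members also entered the principal component that set these tumours apart. The median SD over tumours was 0.92 for the members and 0.25 for all genes, and over controls 0.29 and 0.16.

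In controls the nearly identical pair was above the other 3 in all 6 gamma-induced genes and in 15 of 34 type I-like genes (44.1%), against 17.8% of all genes. Irgm1 was at 9.93 and 10.02 in the pair and at 8.89, 8.74 and 8.71 in the others. Irf1, a transcription factor induced by interferon gamma, was at 10.82 and 10.73 in the pair and at most 8.75 in the 3 remaining controls, and ranged from 8.45 to 9.30 over the tumours.

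**Figure D4:**
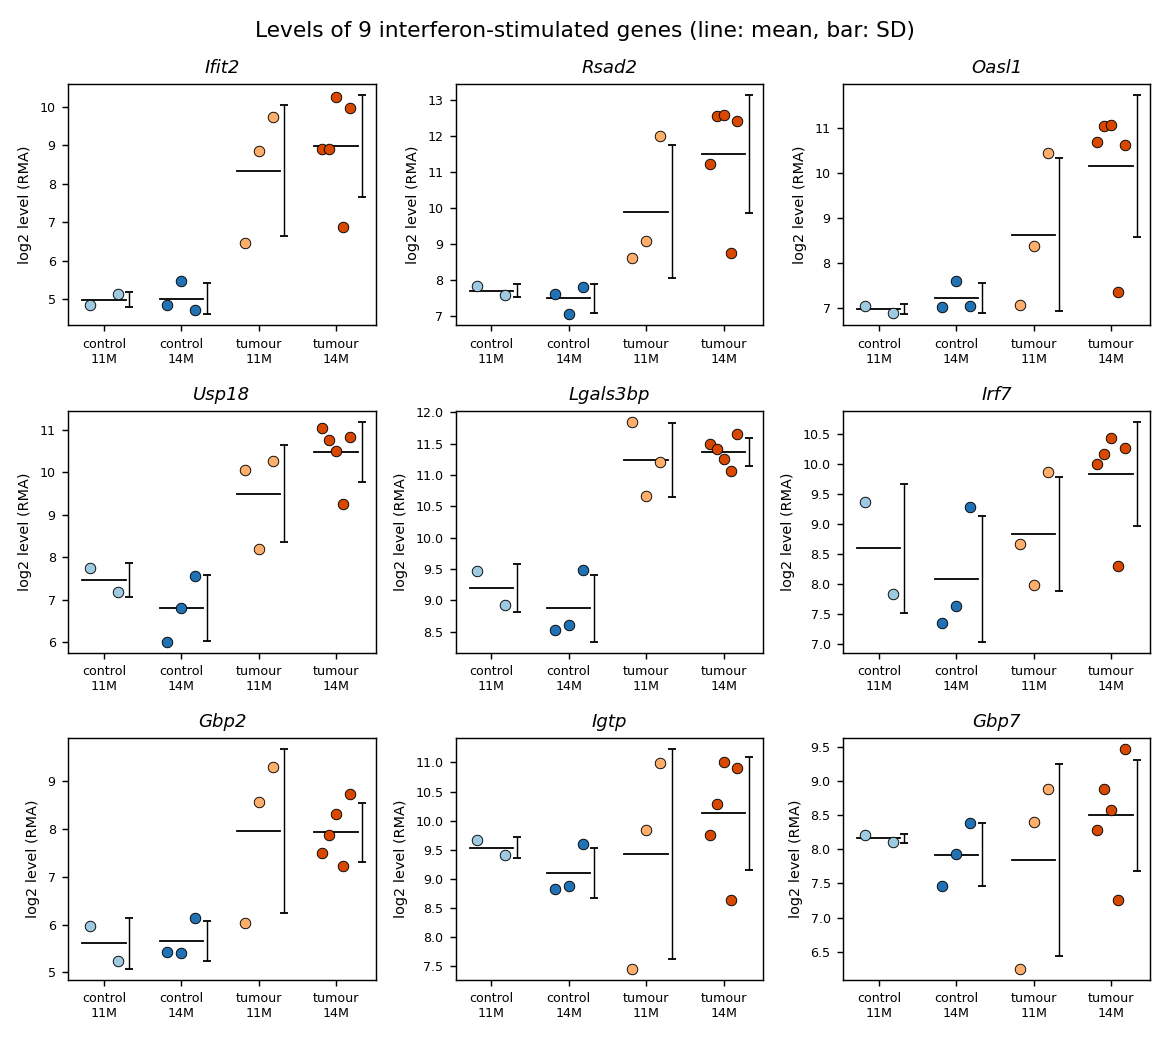
Log2 levels of 9 members by group, 1 point per array, with a line at the group mean and a bar of 1 SD on either side of it. For Oasl1 the in-between tumours lie between 7.05 and 8.37 and the others between 10.43 and 11.07, whereas for Lgals3bp all 8 tumours lie between 10.66 and 11.85.

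At 14 months, 22 members were higher in tumours and 0 lower. Over all genes, 8.37% were higher and 6.88% lower. At an unadjusted p under 0.05, 27 members were higher and 0 lower, and 6153 of the 18194 genes differed in either direction. Of the 22, 19 were also called with the ages combined, and Ddx60, Oas1a and Oas3 were called at 14 months but not combined. Oas1a had a fold change of 2.78 (SE 0.79, adjusted p = 0.0382) at that age. The largest fold changes were 4.01 for Rsad2 (SE 0.92, adjusted p = 0.0174) and 3.98 for Ifit2 (SE 0.79, adjusted p = 0.0099). Leaving out controls lowered the number of all genes higher in each setting given here. Of the 22 member calls, 3 were never lost in the settings followed, those of Lgals3bp, Samd9l and Usp18. The count fell to 9 without 14-month control 1, 10 without 14-month control 2, 13 without 14-month control 3 and 7 without both nearly identical controls.

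At 11 months 2 members were higher, Lgals3bp by 2.04 (SE 0.36, adjusted p = 0.022) and Samd9l by 1.54 (SE 0.30, adjusted p = 0.0321), and 0 were lower. Over all genes, 1.31% were higher and 0.61% lower. At an unadjusted p under 0.05, 8 members were higher and 0 lower, and 2998 of the 18194 genes differed in either direction. Ifit2 had a fold change of 3.35 at this age (SE 0.99, adjusted p = 0.116). Of the 3 tumours at 11 months, 2 were in-between tumours. In each choice of arrays given next, the number of all genes higher at this age moved in the same direction as the member count. Without the 3 in-between tumours, which leaves 1 tumour at 11 months that is assumed to vary like the other groups, 20 members were higher. The 11-month count was 0 without 11-month control 1, without 11-month control 2 or without 11-month tumour 3, and 4 without 11-month tumour 1 or 2. It was 1 without any one of the 14-month controls or without 14-month tumour 2.

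The age comparisons called no member. For the difference of the tumour effect between the ages 0% of all genes were called in either direction, and at an unadjusted p under 0.05 there was 1 member, Herc6, and 544 genes. Between tumours at 14 and at 11 months 0.0055% of genes were higher and 0% lower, with 7 members higher and 1139 genes changed at an unadjusted p under 0.05. Between controls of these ages 0% were called, with 0 members and 326 genes at an unadjusted p under 0.05. The type I-like score was 1.07 ± 0.83 (SD, n = 3) in the 11-month tumours and 1.84 ± 0.71 (SD, n = 5) in the 14-month tumours, and the values ran from 0.52 to 2.03 and from 0.62 to 2.31, so the ages overlapped.

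The receptors of the interferons were higher in 5 of 6 genes with the ages combined, where 10.3% of all genes were higher and 9.81% lower. Il10rb, shared by the type III interferons and interleukin-10 family members, had a fold change of 1.83 (adjusted p = 0.000319). It was at 7.41, 7.29, 7.47, 7.32 and 7.38 in controls, 9.75, 8.57 and 9.22 in the 11-month tumours and a lowest, median and highest value of 8.70, 9.24 and 9.57 in the 14-month tumours. The groups did not overlap, and of the in-between tumours 11-month tumour 2 was the lowest of all tumours while 11-month tumour 1 was the highest. Ifngr2, Ifngr1, Ifnar1 and Ifnlr1 were higher by 1.13, 0.92, 0.45 and 0.33 (adjusted p = 0.00216, 0.00206, 0.0216 and 0.0189), and Ifnar2 had a fold change of 0.21 (adjusted p = 0.546).

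Of the ligands, 12 of 22 were measured, with 0 higher and 2 lower. Ifna1 fell by 0.35 (adjusted p = 0.0455), and Il18, a cytokine that induces interferon gamma, fell by 0.85 (adjusted p = 0.0396). The 9 interferon genes measured lay between 2.52 and 6.50 on all arrays, and whether these levels are above background was not tested because the table holds no detection calls. Of 8 kinases and transcription factors, Jak1 and Irf8 were higher by 0.59 and 1.03 (adjusted p = 0.0148 and 0.0125). Irf2, which competes with Irf1 for its sites, fell by 0.98 (adjusted p = 0.00202).

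Among 9 sensors and adaptors 3 were higher and 0 lower. These were Tlr3 by 1.26, Tlr7 by 1.22 and Dhx58 by 1.07 (adjusted p = 0.00264, 0.00193 and 0.0158). Of 6 inhibitors of the pathway, the phosphatases Ptpn2 and Ptpn6 were higher by 1.37 and 0.47 (adjusted p = 0.00452 and 0.0223). Over the whole pathway list, 12 of 41 genes were higher (29.3%) and 3 lower, against the same 10.3% and 9.81% of all genes, with a median fold change of 0.12.

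Of 37 measured interferon-induced genes outside the 42, 17 were higher (45.9%, against 10.3% of all genes) and 1 was lower, with a median fold change of 0.60. The largest were Slfn4 (3.15), Isg20 (3.05) and Plac8 (2.86), and Trim14 fell by 0.69. Of 15 other gamma-induced genes 8 were higher (53.3%) and 1 lower, with a median of 0.28. Cxcl10 and Cxcl9, chemokines that attract T cells, had fold changes of 3.46 and 1.80, and Gbp8 had one of 1.90, whereas Iigp1, an immunity-related GTPase, fell by 0.81.

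In bulk tissue, fewer cells of a type and less RNA per cell cannot be told apart, and some markers of other cells also differed between tumours and controls. Ptprc, which marks leukocytes, was higher by 2.04 (adjusted p = 0.00147), at 8.75 to 10.74 in tumours and 7.55 to 8.43 in controls. It was at 8.75, 10.44 and 9.88 in the in-between tumours and at 9.34 to 10.74 in the other 5, so the low type I-like scores of 11-month tumour 2 and 14-month tumour 4 went with Ptprc levels inside the range of the high-scoring tumours. The 3 measured neutrophil markers were all higher, with summed levels of 8.91 to 11.55 in tumours and 7.15 to 8.30 in controls.

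Macrophage and Kupffer cell markers were higher in 3 of 10 and lower in 1, Cd163, which fell by 4.07. Their summed level was 12.08 to 13.75 in tumours and 12.49 to 12.83 in controls, and the highest sums, 13.75 and 13.63, were in 11-month tumour 2 and 14-month tumour 4. Of T and natural killer cell markers 0 of 10 were higher and 1 was lower (summed levels of 8.54 to 9.23 and 8.50 to 8.65). Among these 10, Cd8a, Cd8b1, Ncr1, Gzmb and Prf1 lay below the median level of all genes on every array. Of 4 markers of plasmacytoid dendritic cells, which make much interferon alpha, 0 passed. Their summed level was 7.42 to 8.78 in tumours, highest at 8.78 in 14-month tumours 1 and 2, and 7.58 to 7.72 in controls. Siglech was at 4.51 to 5.41 in tumours and 4.47 to 4.63 in controls. Both Siglech and Ccr9 lay below the median level of all genes on every array. Markers of conventional dendritic cells summed to 7.31, 7.72 and 7.46 in the in-between tumours, 7.98 to 9.01 in the other 5 and 6.97 to 7.23 in controls, the same division of the tumours as in most type I-like genes. Of these 4 markers only Itgax passed, at 5.81 to 8.67 in tumours and 4.76 to 5.58 in controls (adjusted p = 0.0113). The others, Flt3, Zbtb46 and Xcr1, lay below the median level of all genes on every array. The part of any of these cells in the levels of the members was not tested.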

How the data were processed

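Labelled cRNA of 13 samples was measured on Affymetrix arrays. The deposited values are log2 levels from RMA (robust multi-array analysis), run by the authors in Partek software, per the submitters' processing notes and the series' design text. Of 45101 probe sets, 34958 name 1 gene, 932 several and 9211 none, in the platform annotation. For each of 18194 genes the probe set with the highest mean was kept, and no filter on level was used.

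A single limma model (version 3.58.1, R 4.3.3) with 4 group means was fitted to all 13 arrays by lmFit, followed by eBayes, whose prior degrees of freedom were 2.314. Ages were weighted equally when combined. Benjamini-Hochberg adjustment ran over all genes, and an adjusted p under 0.05 was the threshold. The members and lists were chosen with earlier results of these data known. All members were open to naming, with values per array for those past the threshold or standing for a role, and from the pathway list every receptor and the 6 genes with the smallest p. From the other lists the 3 largest changes in each direction were named. Jak1, Irf8, Ptpn2, Ptpn6, Dhx58, Ifna1, Il18, Irf1 and the cell markers printed were named after their values were seen.

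Replicate numbers follow sample order and pair nothing. The fit was tested on simulated data. For the combined ages the share of shifted genes recovered was 28% at a log2 shift of 0.5, 74% at 1, 92% at 1.5 and 96% at 2, and 14 of 159 calls were false. At 11 months these were 6%, 46%, 60% and 72%, and at 14 months 34%, 70%, 84% and 88%. The number of arrays limits the precision. Alternatives were averaging all probe sets of a gene, preference for probe sets not ending in _x_at or _s_at, repeated quantile normalisation, arrays shifted to a common median, eBayes with trend and robust spread, array weights, averaging 14-month tumours 1 and 2, leaving out each array or both nearly identical controls, only the arrays with a number in their title, a stricter threshold, only genes above the median level, and no age term. Leaving out the 3 in-between tumours was added after seeing the data. Python 3.11.15 with pandas 2.3.3 and matplotlib 3.10.9 gave the tables and plots.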

Additional observations from a re-analysis of the deposited data

Results flagged for a closer look

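In the 5 tumours of 14 months, tumour 4 lay far below the other 4, by Dixon's criterion with a critical value of 0.710, in 7 members and in the type I-like score. Its levels were 7.73 for Ifit3, 8.36 for Oas1a, 5.51 for Oas3, 7.35 for Oasl1, 6.35 for Oasl2, 8.30 for Irf7 and 7.80 for Cmpk2. The type I-like score of tumour 4 was 0.62, against 1.86 to 2.31 in the other 4. These are 8 of 42 tests, and chance alone gives about 1 in 20. The members share their arrays and are not independent.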

How the results depend on the processing

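The count of members higher with the ages combined, 20, was 11 at an adjusted p under 0.01, 9 without both nearly identical controls, 9 with only the arrays with a number in their title, and 31 without the 3 in-between tumours. It was 12 to 24 with single arrays left out. The count at 11 months, 2, was 0 at an adjusted p under 0.01, 4 with array weights, 0 without both nearly identical controls, 0 with only the arrays with a number in their title, 20 without the 3 in-between tumours and 0 to 4 with single arrays left out. The count at 14 months, 22, was 8 at an adjusted p under 0.01, 7 without both nearly identical controls, 3 with only the arrays with a number in their title, and 9 to 27 with single arrays left out. In the named settings that left out several arrays or used array weights, the number of all genes higher moved in the same direction. The cause of these changes was not tested, beyond the smaller number of arrays. In the other settings these counts stayed within 1.5 times, and no member was lower in any setting of these comparisons. Mean scores over tumours with single arrays left out were 1.45 to 1.70 for type I-like and 0.78 to 1.19 for gamma-induced genes. No paired analysis was possible because the labels give no replicate numbers that pair tumours with controls. Signal over background could not be assessed, since the table holds no detection calls.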
